A study of Mus musculus with 33 samples.

Results

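The genes described here encode the coat of the mouse oocyte and the egg proteins that meet the sperm. They were taken as the rows of the deposited gene table named *Zp1*, *Zp2*, *Zp3*, *Cd9*, *Cd81*, *Izumo1r* and *Astl*, which gave 7 genes of 35321. A gene was compared where its normalized counts averaged 10 or more over all oocytes of both groups, and all 7 met this filter in each comparison. *Cd81* had a mean of 7.43 in the SN oocytes of Nlrp5+/+ and passed in the 3 comparisons with that group only through the other group, so it had to differ there and is left out of the counts of calls in those comparisons. The data are counts of reads on genes in single germinal vesicle (GV) oocytes, which are fully or nearly grown oocytes arrested in meiotic prophase with an intact nucleus. The polyadenylated RNA of each oocyte had been separated from its DNA before sequencing.

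The oocytes came from female C57BL6/Babr mice aged 3 weeks, and 3 genotypes of *Nlrp5* were compared. *Nlrp5*, a maternal-effect gene, encodes a core protein of the subcortical maternal complex. The mutant line carries a frameshift deletion made with CRISPR/Cas9 in zygotes. Nlrp5-/- and Nlrp5+/- females shared litters, and most Nlrp5+/+ females were taken from the founding colony of the line. No hormone was given, and ovaries were digested with collagenase to free the oocytes. There were 10 Nlrp5+/+, 16 Nlrp5+/- and 7 Nlrp5-/- oocytes. Genotype was given by the sample labels, and the stage of chromatin maturation was read from the figures of the study. It is either non-surrounded nucleolus (NSN), the earlier configuration in which transcription is active, or surrounded nucleolus (SN), the later configuration in which transcription is silenced. At NSN there were 4 Nlrp5+/+, 9 Nlrp5+/- and 4 Nlrp5-/- oocytes, and at SN there were 6, 7 and 2. The remaining Nlrp5-/- oocyte, numbered 15, carries no stage in those figures and entered no comparison within or between stages.

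The study assigned the stage from RNA of the same libraries, so every comparison of SN with NSN below is a description. *Astl* is itself one of the genes used for that assignment, as a gene higher at NSN, and its stage difference is therefore not a finding. The other 6 genes are not in the staging list. Oocytes 55 and 61, both Nlrp5+/-, carry the SN and the NSN label and lie in the branch of the other stage in the clustering of the study. The labels name no mouse, so the oocytes of a genotype and stage are 1 sample. No test between groups was made, and the SD over oocytes is the spread between cells only. A gene is called different where the log2 fold change between means is at least 0.5 in size. Each first index of the library barcodes occurred with a single genotype, so genotype and first index cannot be told apart in a comparison of genotypes, and colony cannot be told apart from genotype in those with Nlrp5+/+.

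Library totals ran from 4223595 to 15573360 counts on genes (median 7724340). *Nlrp5* had 1362 to 2556 normalized counts in the 7 Nlrp5-/- oocytes and 10114 to 29131 in the 10 Nlrp5+/+ oocytes, without overlap. In Nlrp5+/- oocytes it had 5062 to 13472. All 8 oocyte markers had counts in every group, and their sum was 16958 to 29878 CPM, which is the count scaled to a library total of 1000000, with the lowest value in oocyte 15. A sum over 11 granulosa cell markers, those of 16 that were low in Nlrp5+/+ oocytes and chosen after their values were seen, was 1.38 to 13.5 CPM in Nlrp5+/+ and 1.92 to 27.1 CPM in Nlrp5+/-. In Nlrp5-/- oocytes it was 10.2 to 303 CPM in those with a stage, and 902 CPM in oocyte 15. Oocytes 7, 13 and 14, all Nlrp5-/-, had 110, 158 and 303 CPM. Some values of the 7 genes are given below without these oocytes too, and those of the listed genes were not computed without them.

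The zona pellucida is an extracellular matrix that the growing oocyte secretes around itself, and in the mouse it is built from the glycoproteins ZP1, ZP2 and ZP3. ZP2 and ZP3 form filaments that ZP1 crosslinks, and the N-terminal region of ZP2 is the part to which sperm bind. After fertilization the cortical granules release ovastacin, the protease encoded by *Astl*, which cleaves ZP2 so that further sperm no longer bind. On the egg plasma membrane, JUNO (encoded by *Izumo1r*) is the receptor for sperm IZUMO1, and the tetraspanin CD9 is needed for fusion, with the related tetraspanin CD81 in a lesser part. Transcription of the zona genes in oocytes depends on FIGLA, a basic helix-loop-helix factor that pairs with E proteins and binds E-box sequences. The RNA of these genes is made during oocyte growth, and the silent SN oocyte keeps what has been stored.

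In the coordinates of the deposited table, which are those of GRCm38, *Zp1* (ENSMUSG00000024734) lies on chromosome 19 from 10914287 to 10920632, *Zp2* (ENSMUSG00000030911) on chromosome 7 from 120126772 to 120145291, and *Zp3* (ENSMUSG00000004948) on chromosome 5 from 135980099 to 135988624. *Astl* (ENSMUSG00000050468) lies on chromosome 2 from 127338639 to 127357651 and *Izumo1r* (ENSMUSG00000031933) on chromosome 9 from 14885814 to 14903949. *Cd9* (ENSMUSG00000030342) lies on chromosome 6 from 125460266 to 125494791, and *Cd81* (ENSMUSG00000037706) on chromosome 7 from 143052739 to 143067934. *Zp3*, *Astl* and *Cd81* are on the plus strand and the other 4 on the minus strand. *Cd9* overlaps *Gm28809* and *Gm26728* on the opposite strand. *Gm28809* had no count in any oocyte. *Gm26728* had a mean of 123 normalized counts, 5.24% of that of *Cd9*. *Cd81* overlaps *R74862* on the opposite strand, which had a mean of 0.792 normalized counts. The library kit does not mark strand, so reads of such partners cannot be told apart. The other 5 genes overlap no entry of the table.

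Promoters of 5 of the 7 genes were matched in the RefSeq table of GRCm38.p6, and those of *Zp3*, *Astl* and *Cd9* are shown because their windows held the most E-box cores. *Zp3* and *Astl* followed *Zp1* from oocyte to oocyte and *Cd9* did not, and *Izumo1r*, which followed *Zp1* too, had a window with 1 core. Each is the 250 bases before the annotated start, 5′ to 3′, with every E-box core CANNTG in capitals, a motif that reads the same on both strands. They lie at chr5:135979855-135980104 on the plus strand for *Zp3*, at chr2:127341386-127341635 on the plus strand for the second annotated start of *Astl*, and at chr6:125494761-125495010 on the minus strand for *Cd9*.
Zp3: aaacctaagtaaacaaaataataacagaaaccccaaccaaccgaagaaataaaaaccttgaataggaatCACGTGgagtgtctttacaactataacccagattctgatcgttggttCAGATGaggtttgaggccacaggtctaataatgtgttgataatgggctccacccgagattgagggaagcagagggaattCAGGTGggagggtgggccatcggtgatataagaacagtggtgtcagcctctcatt
Astl: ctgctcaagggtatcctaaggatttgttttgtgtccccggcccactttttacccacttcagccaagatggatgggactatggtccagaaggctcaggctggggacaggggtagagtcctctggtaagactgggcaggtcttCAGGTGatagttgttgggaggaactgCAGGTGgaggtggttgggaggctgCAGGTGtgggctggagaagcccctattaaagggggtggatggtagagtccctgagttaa
Cd9: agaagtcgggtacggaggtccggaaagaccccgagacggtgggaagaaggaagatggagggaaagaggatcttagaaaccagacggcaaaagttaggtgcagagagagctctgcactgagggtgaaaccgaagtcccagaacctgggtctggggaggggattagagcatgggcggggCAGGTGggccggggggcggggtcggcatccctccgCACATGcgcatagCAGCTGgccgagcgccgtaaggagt
Each of these windows held 3 E-box cores. Counted from the start, they began at -181, -134 and -55 in *Zp3*, at -109, -83 and -59 in *Astl*, and at -73, -38 and -25 in *Cd9*. All 3 cores of *Astl* read CAGGTG, and so did the core at -55 in *Zp3* and that at -73 in *Cd9*. The window of *Cd81* also held 1 core, and that of the first annotated start of *Astl* held 0. Among 32851 promoters of the same length, 66.2% held at least 1 core and 12.2% at least 3. The letters TATAA, searched on both strands, were found in the *Zp3* window and in 22.8% of all windows.

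The zona genes were among the most abundant transcripts of these oocytes, and *Cd81* lay far below the other 6 genes. Levels were compared between genes as RPKM, the CPM divided by the exon length in kilobases. *Zp3* had a mean of 2276 ± 874 RPKM (SD over 33 oocytes, here and below), which was rank 8 of 13817 genes. *Zp2* had 2001 ± 583 RPKM at rank 9, and *Zp1* had 745 ± 288 RPKM at rank 37. *Astl* reached 413 ± 141 RPKM at rank 74. *Cd9* had 144 ± 71.7 RPKM at rank 226, and *Izumo1r* had 90.1 ± 33.4 RPKM at rank 387. *Cd81* had 1.03 ± 1.54 RPKM at rank 10884, with a count in 32 of 33 oocytes.

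**Figure D1:**
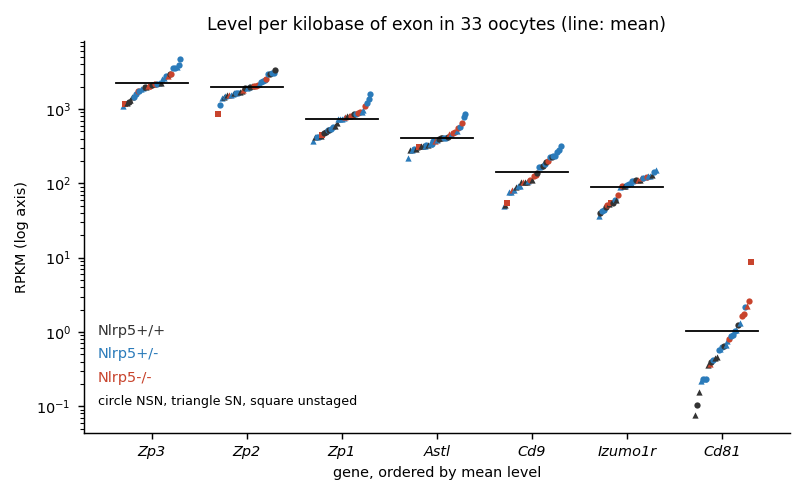
Level of each gene in RPKM on a log axis, 1 point per oocyte, ordered by the mean over 33 oocytes (line). The 3 zona genes and Astl lie between 217 and 4783 RPKM, whereas Cd81 does not exceed 8.75 RPKM, and 1 oocyte with no Cd81 count is not drawn.

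The order of the levels held in every oocyte for *Zp2* above *Zp1*, *Zp1* above *Astl*, *Astl* above *Cd9* and *Izumo1r* above *Cd81*. *Zp3* and *Zp2* did not differ beyond their spread, since *Zp3* was the higher of the pair in 19 of 33 oocytes. With coding length in place of exon length the order of this pair turned, and the ratio of means was 0.929 in place of 1.14. *Cd9* was above *Izumo1r* in 22 of 33 oocytes, and these neighbours overlapped widely. In each oocyte the 3 zona genes together took 0.477% to 1.63% of all counts, with a mean of 0.994% ± 0.263. The lowest share was that of oocyte 15. The median share was 1.14% at NSN and 0.814% at SN in Nlrp5+/+, 1.13% and 0.830% in Nlrp5+/-, and 1.08% and 0.938% in Nlrp5-/-. In Nlrp5+/+ the NSN oocytes ranged from 0.781% to 1.29% and the SN oocytes from 0.701% to 0.901%, so the stages overlapped.

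The measured ratios of the zona transcripts varied from oocyte to oocyte. They are not corrected for base composition, and *Zp2* has a GC content of 45.4% beside 55.1% in *Zp1* and 56.1% in *Zp3*. The part of base composition in the ratios was not tested. Per length, the ratio of *Zp3* to *Zp2* had a median of 1.17 and ranged from 0.509 to 2.40 over the 33 oocytes. The ratio of *Zp1* to *Zp2* had a median of 0.430 (0.158 to 0.639), and that of *Zp1* to *Zp3* a median of 0.355 (0.161 to 0.487). *Zp1* to *Zp2* had a median of 0.207 in NSN oocytes of Nlrp5+/+ (0.158 to 0.425), below the medians of the other 5 groups with a stage, which ran from 0.361 to 0.488. Its range overlapped that of every such group except the 2 SN oocytes of Nlrp5-/- (0.430 and 0.546).

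*Zp2* had a lower mean at SN than at NSN in each genotype. In Nlrp5+/+ NSN oocytes *Zp2* had 38285, 38472, 62680 and 68128 normalized counts, and in SN oocytes its lowest, median and highest values were 31965, 35356 and 45474. Only 2 of the NSN oocytes lay above all SN oocytes, so the groups overlapped. The log2 fold change of SN over NSN was -0.50 in Nlrp5+/+, beside a pooled SD of 0.31 on the log2 scale. In Nlrp5+/- the 9 NSN oocytes ran from 23798 through a median of 49069 to 64922, and the 7 SN oocytes from 30756 through 34209 to 46686, with a log2 fold change of -0.34. In Nlrp5-/- the NSN oocytes had 43244, 43823, 43890 and 48884 and the SN oocytes 32547 and 38201, without overlap and with a log2 fold change of -0.35. The direction was the same in the 3 genotypes, and the size exceeded the pooled SD in Nlrp5+/+ and in Nlrp5-/-, where that SD was 0.11. The Nlrp5+/+ value lay at the size taken as a call, and fell short of it without oocyte 79 (-0.34), without oocyte 78 (-0.40) and without oocyte 69, 72, 85 or 86. It was -0.33 between oocytes that shared a first index, and without oocytes 7, 13 and 14 the Nlrp5-/- value was -0.19.

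*Zp1* had 7114, 7240, 7834 and 11830 normalized counts in the NSN oocytes of Nlrp5+/+, and its SN oocytes ran from 6728 through a median of 9626 to 12850. SN over NSN gave log2 fold changes of 0.19 for the Nlrp5+/+ oocytes, -0.10 for Nlrp5+/- and -0.16 for Nlrp5-/-, none above the pooled SD. For *Zp3* they were -0.14, -0.27 and 0.15, again within the spread. *Zp3* ran from 12380 to 27431 in NSN and from 12423 to 23681 in SN oocytes of Nlrp5+/+. For *Astl*, the staging marker, they were -0.30, -0.37 and -0.34. Without oocytes 7, 13 and 14 the Nlrp5-/- values were -0.35 for *Zp1*, 0.13 for *Zp3* and -0.47 for *Astl*. After correction for GC content and length they were -0.45, -0.15 and -0.55, beside -0.33 for *Zp2*, so *Zp1* lay further from 0 than *Zp2* in Nlrp5-/- under both settings. The same correction gave 0.08 for *Zp1* in Nlrp5+/+ and 0.02 in Nlrp5+/-. With medians over oocytes in place of means, the *Zp1* value in Nlrp5+/- was 0.37. Between Nlrp5+/- oocytes that shared a first index, of which 1 index has oocyte 55 as its only SN oocyte, they were -0.79 for *Zp1*, -1.10 for *Zp3* and -0.96 for *Astl*.

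**Figure D2:**
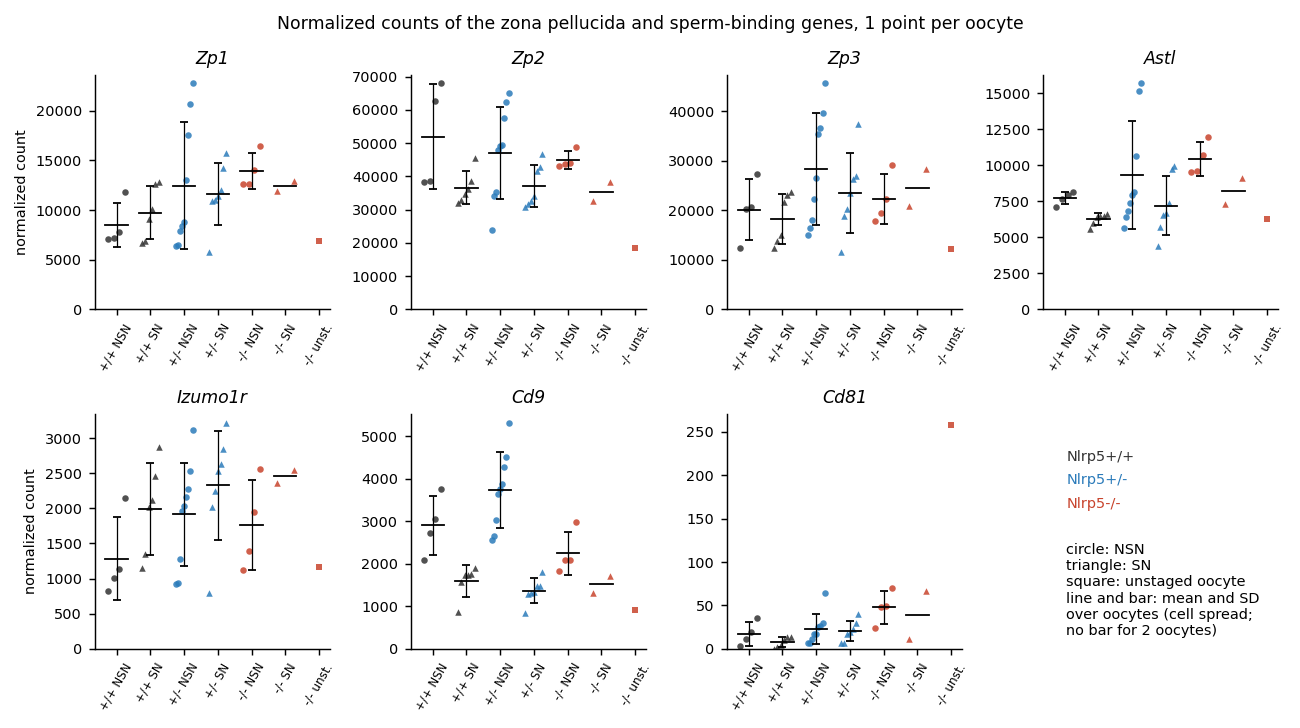
Normalized counts of the 7 genes, 1 point per oocyte, by genotype and stage, with the mean as a line and the SD over oocytes as a bar. Cd9 was lower at SN than at NSN in each genotype without overlap, and Cd81 was highest in the unstaged oocyte 15 at 258.

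*Cd9* showed the clearest difference between stages, with all SN oocytes below all NSN oocytes in each of the 3 genotypes. In Nlrp5+/+ the NSN oocytes had 2082, 2726, 3065 and 3756 normalized counts, and the SN oocytes ran from 874 through a median of 1738 to 1893. The log2 fold change was -0.87, beside a pooled SD of 0.39. In Nlrp5+/- the NSN oocytes ran from 2556 through 3759 to 5309 and the SN oocytes from 844 through 1335 to 1816, a log2 fold change of -1.45 beside a pooled SD of 0.35. In Nlrp5-/- the NSN oocytes had 1822, 2078, 2084 and 2994 and the SN oocytes 1322 and 1710, a log2 fold change of -0.57 beside a pooled SD of 0.30. Pooled over oocytes, *Cd9* took 391 CPM (384 to 397, exact 95% Poisson interval for counting error only) at NSN and 193 CPM (190 to 196) at SN in Nlrp5+/+. In Nlrp5+/- these were 468 CPM (462 to 473) and 173 CPM (170 to 177). Compared only between oocytes that shared a first index, the log2 fold change was -0.76 for Nlrp5+/+, -1.01 for Nlrp5+/- and -0.56 for Nlrp5-/-. Without oocytes 55 and 61 the Nlrp5+/- value was -1.53, and the Nlrp5-/- value was -0.39 without oocyte 31, -0.40 without oocyte 14 and -0.56 without oocytes 7, 13 and 14.

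*Izumo1r* had the opposite direction, with higher values at SN. In Nlrp5+/+ the NSN oocytes had 829, 1012, 1136 and 2153 normalized counts and the SN oocytes ran from 1146 through 2068 to 2869, and the log2 fold change was 0.64 beside a pooled SD of 0.54. Oocyte 87 overlapped the SN group, and without it the log2 fold change was 1.01. It was 0.48 without oocyte 70. In Nlrp5+/- it was 0.28, with 921 to 3109 at NSN and 792 to 3219 at SN, and it was -0.35 between oocytes that shared a first index. One of the 2 indices that allow this comparison has oocyte 55 as its only SN oocyte. In Nlrp5-/- it was 0.48, with 1119 to 2565 at NSN and 2365 and 2544 at SN, and it was 0.17 without oocytes 7, 13 and 14 and 0.23 after correction for GC content and length. *Cd81*, at far lower counts, had log2 fold changes of -1.09, -0.14 and -0.30 with overlapping oocytes, and the first was -0.50 without oocyte 70. The last was -2.04 without oocyte 7 and -1.66 without oocytes 7, 13 and 14, and it changed sign to 0.46 without oocyte 31.

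In Nlrp5+/+, 3 of the 6 genes other than *Cd81* were called at SN over NSN, beside 33.9% of the 13576 genes tested. *Izumo1r* was the 1 called higher, beside 13.9%, and *Zp2* and *Cd9* were the 2 called lower, beside 20.0%. Among the 12776 genes that averaged 10 or more in both groups these shares were 12.5% and 17.8%. Leaving out *Astl*, which helped to set the stage, *Cd9* was lower without overlap of oocytes and 0 genes were higher without overlap, beside 6.07% and 3.73% of all genes (9.8% in either direction). In Nlrp5+/- only *Cd9* was called, as lower, beside 28.7% of genes called, 9.33% higher and 19.4% lower. It was also the 1 gene lower without overlap, where 0.823% of all genes were lower and 0.514% higher in this way, 1.34% together. In Nlrp5-/- *Cd9* alone was called, again as lower, beside 38.1% of genes called, 14.3% higher and 23.8% lower. Again leaving out *Astl*, *Zp2* and *Cd9* were lower without overlap there, beside 10.8% of genes lower, 9.47% higher and 20.2% in either direction. The median of the 7 log2 fold changes was -0.30, -0.27 and -0.30 in Nlrp5+/+, Nlrp5+/- and Nlrp5-/-, where the first is the value of *Astl* and the last that of *Cd81*. Over the 5 genes other than *Astl* and *Cd81* the medians were -0.14, -0.27 and -0.16, and those of all genes tested were 0.03, -0.05 and -0.05. Over all 7 the Nlrp5+/- median was -0.79 between oocytes that shared a first index and -0.15 without oocyte 55, and the Nlrp5-/- median was -0.11 without oocyte 31.

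**Figure D3:**
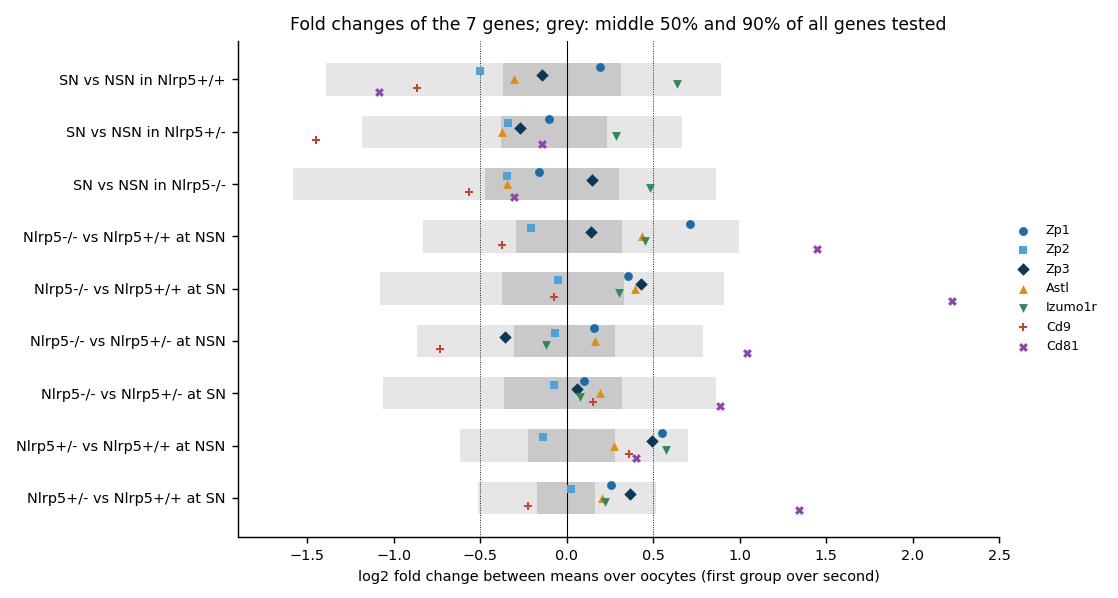
Log2 fold changes of the 7 genes in the 9 comparisons, with the middle 50% (dark grey) and 90% (light grey) of all genes tested and dotted lines at 0.5 in either direction. Cd9 in the Nlrp5+/- stage comparison (-1.45) and Cd81 in 3 of the 4 comparisons of genotypes in which both groups averaged 10 or more lie outside the middle 90% of genes.

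Beside *Cd9*, its direct partners in the membrane had lower values at SN as well. *Ptgfrn* and *Igsf8* encode immunoglobulin superfamily proteins that associate with CD9 and CD81. *Ptgfrn* had 62.5, 74.7, 117 and 263 normalized counts in the NSN oocytes of Nlrp5+/+ and 10.7 to 56.7 in the SN oocytes, without overlap and with a log2 fold change of -1.95. In Nlrp5-/- its NSN oocytes had 50.5 to 160 and its SN oocytes 29.7 and 39.1, a log2 fold change of -1.52. In Nlrp5+/- the ranges of 32.5 to 189 and 13.3 to 98.3 overlapped, with a log2 fold change of -1.25. The lowest NSN value there was that of oocyte 61 and the highest SN value that of oocyte 55, the pair placed in the branch of the other stage. *Igsf8* had log2 fold changes of -0.98, -1.20 and -1.18 in Nlrp5+/+, Nlrp5+/- and Nlrp5-/-, with overlap in the first 2 genotypes.

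**Figure D4:**
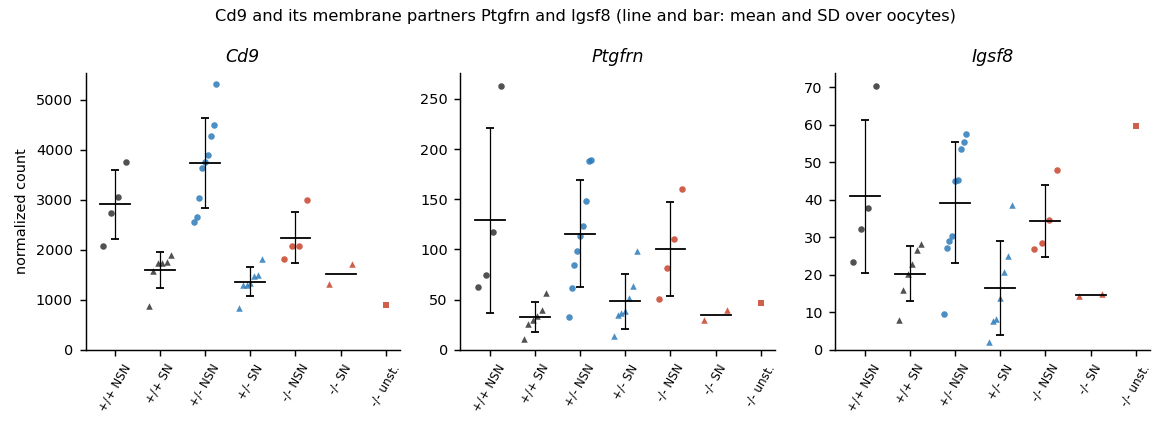
Normalized counts of Cd9, Ptgfrn and Igsf8, 1 point per oocyte, by genotype and stage, with mean and SD over oocytes. The mean of each gene is lower at SN than at NSN in the 3 genotypes, and the groups overlap for Ptgfrn in Nlrp5+/- and for Igsf8 in Nlrp5+/+ and Nlrp5+/-.

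Of the 17 genes listed as egg membrane partners, 11 averaged 10 or more in both stages of Nlrp5+/+, and 2 were higher and 4 lower by at least 0.5. The counts were 3 and 4 of 14 in Nlrp5+/- and 2 and 5 of 13 in Nlrp5-/-. *Cd59a* and *Msn* in Nlrp5+/+ and *Cd59a* in Nlrp5-/- are not counted, since they passed the filter only through the SN oocytes. Over all genes that passed the filter, the list medians were 0.05, 0.27 and -0.19 in the 3 genotypes. Over all genes tested, 13.9%, 9.33% and 14.3% were higher and 20.0%, 19.4% and 23.8% lower in Nlrp5+/+, Nlrp5+/- and Nlrp5-/-, and the counts of the lists below stand beside the same shares. *Msn* (moesin, an actin linker) was higher at SN in the 3 genotypes, with log2 fold changes of 1.63, 1.56 and 1.29, at means of 8.98 to 63.3 normalized counts. *Itgav*, an integrin subunit, was lower, with -0.75, -0.55 and -0.69. *Cd55*, a membrane protein that inhibits complement, had 0.89, 0.55 and -0.03.

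The zona regulators listed were *Figla*, *Nobox*, *Lhx8*, *Sohlh1*, *Sohlh2*, *Taf4b*, *Tcf3* and *Tcf12*, and all but *Sohlh1* could be compared. Of these 7, 0 were higher and 3 were lower at SN in each genotype, beside 9.33% to 14.3% of all genes higher and 19.4% to 23.8% lower, and the list medians were -0.39, -0.50 and -0.42, below those of all genes. *Taf4b*, a subunit of the TFIID initiation factor, had log2 fold changes of -1.07, -0.70 and -0.65, and *Tcf12*, an E protein, had -1.04, -0.68 and -0.96. *Figla* had -0.36, -0.79 and -0.42, at a mean of 484 normalized counts over all oocytes, and *Nobox*, an oocyte homeobox gene, had -0.39, -0.50 and -0.06 at a mean of 3965. The 3 lower genes were *Sohlh2*, *Taf4b* and *Tcf12* in Nlrp5+/+ and Nlrp5-/-, and *Figla*, *Taf4b* and *Tcf12* in Nlrp5+/-. *Sohlh2* had log2 fold changes of -0.75, 0.46 and -0.54 at a mean of 30.1. The value of *Nobox* in Nlrp5+/- (-0.498) fell just short of a call. *Sohlh1* had counts in 11 of 33 oocytes and a mean of 1.64.

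Among 8 genes listed for processing and glycosylation of zona proteins, 7 could be compared. At SN, 1 was higher and 3 were lower in Nlrp5+/+, 0 and 4 in Nlrp5+/-, and 2 and 1 in Nlrp5-/-, with list medians of -0.35, -0.53 and -0.16. *Umodl1*, on this list although it encodes another protein with a zona pellucida domain, had a mean of 13359 normalized counts. Its log2 fold changes were 0.69, 0.19 and 0.79. It was the 1 gene of the list called higher in Nlrp5+/+ and, with *Furin*, 1 of the 2 in Nlrp5-/-. *C1galt1*, an enzyme of O-glycan synthesis, had -1.15, -0.53 and -1.26 at a mean of 54.2. Of 13 genes for cortical granule exocytosis, which releases the ASTL protein, 10 could be compared, and 0 were higher and 1 was lower in Nlrp5+/+, 0 and 0 in Nlrp5+/-, and 1 and 1 in Nlrp5-/-, where *Cplx1* passed only through the SN oocytes and is not counted, with list medians of 0.05, -0.07 and 0.02. The SNARE gene *Vamp3* had -0.67, -0.47 and -1.43. Of 11 genes that act on the sperm side, between 2 and 3 passed the filter in a comparison of stages, and *Izumo1*, the sperm ligand of JUNO, had a count in 5 of 33 oocytes.

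Comparisons of genotypes were made within a stage. The Nlrp5-/- and Nlrp5+/- groups were each set against the same Nlrp5+/+ oocytes, and the values are given side by side. At NSN, *Zp1*, the crosslinker of zona filaments, had 12588, 12612, 14032 and 16471 normalized counts in Nlrp5-/- oocytes, all above the 7114 to 11830 of Nlrp5+/+. The log2 fold change was 0.71 beside a pooled SD of 0.28. It was 0.84 without oocytes 13 and 14. Over the alternative settings, with correction for GC content and length among them, it ran from 0.44 to 0.84. With the stages put together it was 0.44 over all 7 Nlrp5-/- oocytes and 0.54 without the unstaged oocyte 15. In Nlrp5+/- oocytes *Zp1* ran from 6411 through a median of 8831 to 22802, a range that holds those of the other genotypes. The log2 fold change was 0.55 over Nlrp5+/+ and 0.16 for Nlrp5-/- over Nlrp5+/-, both below the pooled SD. The latter was 0.59 with medians over oocytes, 0.32 without oocyte 48 and 0.05 with pooled sums. The value over Nlrp5+/+ lay between 0.39 and 0.48 without oocyte 45, 48, 62, 70 or 78, and it was 0.23 with medians over oocytes in place of means and 0.33 after correction for GC content and length. Both NSN oocytes of 1 first index had 20706 and 22802, whereas the other 7 had 6411 to 17541. At SN, the log2 fold change of Nlrp5-/- over Nlrp5+/+ was 0.36 for *Zp1*, beside a pooled SD of 0.37, and it was 0.30 without oocyte 7 and 0.11 after correction for GC content and length. Pooled over oocytes at NSN, *Zp1* took 1128 CPM (1117 to 1139, Poisson) in Nlrp5+/+, 1847 CPM (1837 to 1858) in Nlrp5+/- and 1908 CPM (1892 to 1923) in Nlrp5-/-.

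*Astl* was higher in Nlrp5-/- than in Nlrp5+/+ oocytes at both stages without overlap, by less than the size taken as a call. At NSN the 4 Nlrp5-/- oocytes had 9524, 9591, 10708 and 11968 normalized counts and the 4 Nlrp5+/+ oocytes 7142, 7691, 7914 and 8158. The log2 fold change was 0.44 beside a pooled SD of 0.12. It was 0.39 without oocytes 13 and 14 and 0.33 after correction for GC content and length. At SN the Nlrp5-/- oocytes had 7318 and 9147 and the Nlrp5+/+ oocytes ran from 5557 through 6446 to 6644, a log2 fold change of 0.39. It was 0.22 without oocyte 7, 0.55 without oocyte 31 and 0.20 after correction for GC content and length. The GC slopes, described below, were 0.07 and 0.68 in the SN oocytes of Nlrp5-/- and -0.29 to 0.05 in those of Nlrp5+/+. The Nlrp5+/- oocytes had 5669 to 15741 at NSN and 4403 to 9990 at SN and overlapped the other genotypes, with log2 fold changes over Nlrp5+/+ of 0.27 and 0.20. Since *Astl* helped to set the stage of each oocyte, its level within a stage is not free of that assignment.

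*Zp2* had small differences between genotypes. Its log2 fold changes were -0.21 and -0.05 for Nlrp5-/- over Nlrp5+/+ at NSN and SN, -0.14 and 0.02 for Nlrp5+/- over Nlrp5+/+, and -0.07 and -0.07 for Nlrp5-/- over Nlrp5+/-. None of the 6 exceeded the pooled SD of its comparison, and without oocyte 7 both SN values of Nlrp5-/- changed sign, to 0.06 over Nlrp5+/+ and 0.04 over Nlrp5+/-. For *Zp3* the same 6 values were 0.14, 0.43, 0.49, 0.37, -0.35 and 0.06. The oocytes overlapped in each of these comparisons, and the value of 0.43 rested on 2 Nlrp5-/- oocytes with 20887 and 28310 normalized counts. Without oocytes 7, 13 and 14 the values of 0.14 and 0.43 were 0.35 and 0.63. Those of -0.35 and 0.06 were then -0.14 and 0.26. Without oocyte 31 the value of 0.43 was 0.19 and that of 0.06 was -0.18. After correction for GC content and length the values of 0.43, 0.49 and -0.35 were 0.24, 0.19 and -0.14. For *Izumo1r* they were 0.45, 0.30, 0.58, 0.22, -0.12 and 0.08, with overlap in each. Without oocytes 13 and 14 the first of them was 0.82, as it was without oocyte 87, and the second was 0.04 after correction for GC content and length. Without oocytes 13 and 14 the value of -0.12 became 0.24. The value of 0.58, for Nlrp5+/- over Nlrp5+/+ at NSN, was 0.46 without oocyte 61, 0.42 without oocyte 70 and 0.48 without oocyte 78.

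*Cd9* had its lowest NSN mean in Nlrp5-/- oocytes and its highest in Nlrp5+/- oocytes. Means were 2244 ± 514 (n = 4) in Nlrp5-/-, 2907 ± 698 (n = 4) in Nlrp5+/+ and 3736 ± 898 (n = 9) in Nlrp5+/-. The log2 fold change was -0.73 for Nlrp5-/- over Nlrp5+/-, beside a pooled SD of 0.34, and 2994 in oocyte 14 overlapped the Nlrp5+/- range that begins at 2556. It was -0.94 without oocytes 13 and 14 and -0.51 after correction for GC content and length. For Nlrp5-/- over Nlrp5+/+ it was -0.37, and for Nlrp5+/- over Nlrp5+/+ 0.36, each near the pooled SD of 0.33 and 0.35, and the latter was 0.20 after that correction. Without oocytes 13 and 14 the former was -0.57. At SN the 3 means were 1516, 1595 and 1365, with log2 fold changes of -0.07, -0.22 and 0.15 for the comparisons of Nlrp5-/- with Nlrp5+/+, Nlrp5+/- with Nlrp5+/+ and Nlrp5-/- with Nlrp5+/-. The first was -0.27 without oocyte 7, 0.10 without oocyte 31 and -0.20 without oocyte 69, the second -0.35 without oocyte 69, and the third -0.05 without oocyte 7 and 0.32 without oocyte 31, so no direction is given.

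*Cd81* had the largest log2 fold change of the 7 genes in each comparison of genotypes except Nlrp5+/- over Nlrp5+/+ at NSN (0.40), at counts so low that they carry little weight. In Nlrp5+/+ oocytes it had 2.77, 11.1, 18.9 and 34.9 normalized counts at NSN and 0 to 13.9 at SN, where 67 reads were counted in 6 oocytes. In Nlrp5+/- oocytes it had 6.77 to 63.9 at NSN and 6.66 to 39.9 at SN. In Nlrp5-/- oocytes it had 23.7, 47.99, 49.5 and 69.98 at NSN, 10.9 and 66.1 at SN and 258 in oocyte 15. Only oocyte 15 lay clear of the rest. Pooled over oocytes at NSN, this was 2.44 CPM (1.96 to 2.99, Poisson) in Nlrp5+/+, 2.97 CPM (2.57 to 3.43) in Nlrp5+/- and 7.03 CPM (6.13 to 8.03) in Nlrp5-/-. The log2 fold change of Nlrp5-/- over Nlrp5+/+ was 1.44 at NSN and 2.23 at SN, beside pooled SDs of 1.08 and 1.57, with overlap at both stages. Over Nlrp5+/- it was 1.04 and 0.88. With the stages put together, Nlrp5-/- over Nlrp5+/+ was 2.64 with oocyte 15 and 1.9 without it.

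The 4 Nlrp5-/- oocytes with the highest sums of the 11 granulosa markers, 7, 13, 14 and 15, had 66.1, 47.99, 69.98 and 258 normalized counts of *Cd81*, and the other 3 had 10.9 to 49.5, which overlaps. Without oocytes 7, 13 and 14 the log2 fold change of Nlrp5-/- over Nlrp5+/+ was 1.07 at NSN and 0.49 at SN, and that over Nlrp5+/- was 0.67 at NSN and -0.85 at SN. Of 16 granulosa markers, 12 had a count in NSN oocytes of Nlrp5+/+, where *Amh*, *Inhbb*, *Fst* and *Foxl2* were at 0, and all 16 had a count in each other group. The sum over the 16 was 284 to 476 CPM in Nlrp5+/+, 311 to 435 CPM in Nlrp5+/-, 299 to 748 CPM in Nlrp5-/- oocytes with a stage and 1620 CPM in oocyte 15. *Inha*, the inhibin alpha subunit of granulosa cells, had 476, 519, 906 and 2711 normalized counts in oocytes 7, 13, 14 and 15. It had at most 45.2 in any Nlrp5+/+ oocyte. *Cyp19a1*, *Serpine2* and *Kitl* of the same list did not exceed their highest Nlrp5+/+ values of 664, 2973 and 133 in these 4 oocytes. Each other marker of the list did in at least 1 of them. Over 33 oocytes, log2 *Cd81* and the log2 sum of the 11 markers low in Nlrp5+/+ had a Pearson r of 0.61, which was 0.49 without oocyte 15, and a Spearman rho of 0.36. Within groups of genotype and stage r was 0.22. Those 11 markers were picked as low in Nlrp5+/+, where *Cd81* also had its lowest mean at each stage. Part of r across genotypes is therefore set by that choice, and r with all 16 was not computed. In Nlrp5-/- over Nlrp5+/+, markers that passed the filter only through the Nlrp5-/- oocytes had to be higher and are not counted. At NSN, 3 of the 7 granulosa markers that averaged 10 or more in both groups were higher and 0 lower. The counts were 1 and 0 of 2 stroma, vessel and blood markers and 2 and 0 of 4 theca and interstitial markers. Of all genes that averaged 10 or more in both groups, 13.3% were higher and 12.2% lower. At SN the counts were 2 and 0 of 7 granulosa, 2 and 2 of 5 stroma and 1 and 0 of 1 theca markers. Of all such genes, 15.3% were higher and 16.3% lower there. Left out as higher were 5 granulosa and 4 stroma markers at NSN and 3 granulosa, 1 stroma and 2 theca markers at SN. These are the comparisons in which *Zp1*, *Astl* and *Cd81* were given as higher, and the part of somatic transcripts in *Zp1* and *Astl* was not tested either. The sum of theca and interstitial markers was 318 CPM in oocyte 61, the second highest of the 33, and that oocyte had the lowest *Cd81* of its group at 6.77. The part of somatic transcripts in the *Cd81* values was not tested. For the other 6 genes, r with the same sum lay between -0.44 (*Zp2*) and 0.18 (*Zp1*).

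**Figure D5:**
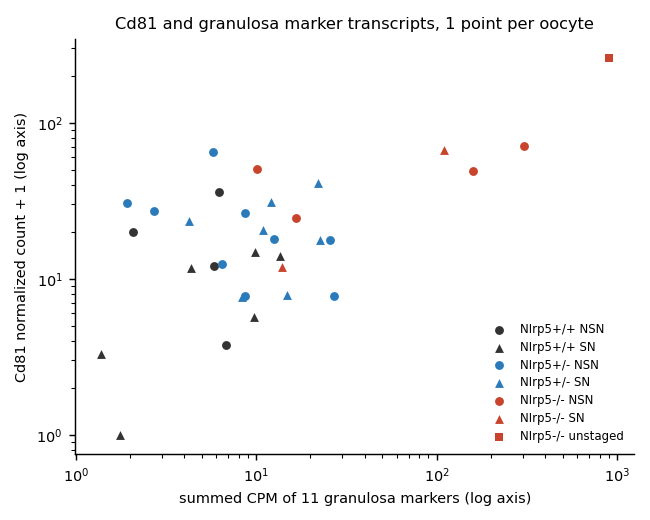
Cd81 normalized count plus 1 against the summed CPM of 11 granulosa markers low in Nlrp5+/+ oocytes, both on log axes, 1 point per oocyte. Oocyte 15 lies at 902 CPM and a Cd81 count of 258, and the other oocytes above 100 CPM are Nlrp5-/- too.

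Of the 7 genes, *Zp1* and *Cd81* were called in Nlrp5-/- over Nlrp5+/+ at NSN, both higher, beside 28.9% of 13833 genes called, 15.6% higher and 13.3% lower. *Zp1* and *Astl* were higher without overlap, beside 3.96% of genes higher, 3.14% lower and 7.1% in either direction. At SN 0 of the 6 genes other than *Cd81* were called, beside 34.6% of genes, 15.9% higher and 18.7% lower, and *Astl* was higher without overlap, beside 7.24% of genes higher, 7.85% lower and 15.1% in either direction. In Nlrp5-/- over Nlrp5+/- 2 of 7 were called at NSN, *Cd81* as higher and *Cd9* as lower, beside 27.1% of genes, 12.2% higher and 14.9% lower. No gene of the 7 was without overlap, beside 0.476% of genes higher, 0.686% lower and 1.16% in either direction. At SN *Cd81* alone was called, as higher, beside 32.2% of genes, 14.6% higher and 17.6% lower, and 0 were without overlap, beside 5.25% higher, 5.81% lower and 11.1% in either direction. In Nlrp5+/- over Nlrp5+/+ *Zp1* and *Izumo1r* were called at NSN, both higher, beside 19.4% of genes, 10.8% higher and 8.61% lower, and 0 were without overlap, beside 0.175% higher, 0.269% lower and 0.444% in either direction. At SN 0 of the 6 genes other than *Cd81* were called, beside 10.6% of genes, 5.33% higher and 5.29% lower, and 0 were without overlap, beside 0.0226% higher, 0.0602% lower and 0.0827% in either direction. The median of the 7 log2 fold changes was 0.44 at NSN and 0.36 at SN for Nlrp5-/- over Nlrp5+/+, -0.07 and 0.10 for Nlrp5-/- over Nlrp5+/-, and 0.40 and 0.22 for Nlrp5+/- over Nlrp5+/+, and the medians of all genes lay between -0.01 and 0.04. These medians moved with single oocytes and with the processing. For Nlrp5-/- over Nlrp5+/+ the NSN value, which is that of *Astl*, was 0.14 over the 5 genes other than *Astl* and *Cd81*, 0.21 without oocyte 30 and 0.17 with the stages put together and oocyte 15 included, and the SN value was 0.15 after correction for GC content and length. For Nlrp5+/- over Nlrp5+/+ the NSN value was 0.20 after that correction, 0.23 with medians over oocytes and 0.24 without oocyte 87. It was 0.49 over the 5 genes other than *Astl* and *Cd81* and 0.52 without oocyte 53. The SN value was 0.13 without oocyte 40 and 0.37 without oocyte 55. Both values of Nlrp5-/- over Nlrp5+/- changed sign under some alternatives, the first running from -0.16 to 0.12 and the second from -0.15 to 0.17.

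Of the 7 zona regulators that could be compared, 0 were called in Nlrp5-/- over Nlrp5+/+ at NSN and 2 were higher at SN, *Taf4b* with a log2 fold change of 0.64 and *Sohlh2* with 0.60. Over all genes, 15.6% were higher and 13.3% lower at NSN and 15.9% and 18.7% at SN, and these shares apply to the lists that follow too. *Figla* had 0.40 and 0.35, and the list medians were 0.22 and 0.35. Of the 7 processing genes compared, 1 was higher and 4 were lower at NSN and 1 and 1 at SN, with list medians of -0.54 and -0.14. *C1galt1* was lower at both stages, with -0.95 and -1.06, and *Mgat1*, which starts complex N-glycans, had -0.72 and -0.47. Of the exocytosis genes, 1 of 9 was higher and 1 lower at NSN, and 2 and 2 of 10 at SN, with list medians of -0.12 and -0.02. *Napa* had 0.73 at NSN, without overlap, and *Vamp3* had -1.22 at SN, without overlap. Of 11 egg membrane partners that averaged 10 or more in both groups, 1 was higher and 1 lower at NSN, and 2 and 3 of 13 at SN. At NSN *Cd63*, a tetraspanin, had means of 22.2 normalized counts in Nlrp5-/- and 4.12 in Nlrp5+/+, and *Msn* had 25.2 and 8.98. Both passed the filter only through Nlrp5-/- and are not counted. The list medians over all genes that passed were -0.06 and -0.22.

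From oocyte to oocyte, *Zp1* moved with *Zp3* and *Astl*, and how far *Zp2* and *Izumo1r* moved with them depended on a correction for base composition. These correlations are descriptions over 33 oocytes on the log2(normalized count + 1) scale, and the points share library, depth and base composition. Pearson r was 0.71 for *Zp1* with *Zp3*, 0.72 with *Astl* and 0.63 with *Izumo1r*, and 0.67 for *Zp3* with *Izumo1r*. For *Zp2* it was 0.14 with *Zp1*, 0.33 with *Zp3*, 0.45 with *Astl*, 0.50 with *Cd9* and -0.26 with *Izumo1r*. After group means of genotype and stage were subtracted, *Zp1* kept 0.72 with *Zp3*, and *Zp2* had 0.08 with *Cd9*.

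Base composition moved with these values. The longest transcript of *Zp3*, *Izumo1r*, *Zp1* and *Astl* had a GC content of 56.1%, 56.1%, 55.1% and 53.3%, whereas *Cd9* had 46.8% and *Zp2* 45.4%. For each oocyte, the slope of log2 counts on GC content over genes with a mean of at least 100 normalized counts was fitted together with length, and it ran from -0.56 to 0.88 (log2 per 10 points of GC), with the highest value in oocyte 15. Over the 32 other oocytes, r with this slope was 0.66 for *Zp1*, 0.62 for *Izumo1r*, 0.54 for *Zp3*, 0.47 for *Astl*, -0.11 for *Cd9* and -0.20 for *Zp2*. With counts corrected for GC content and length, r over 33 oocytes was 0.48 for *Zp2* with *Zp1*, 0.61 with *Zp3* and 0.74 with *Astl*, and *Zp1* had 0.71 with *Zp3*, 0.73 with *Astl* and 0.49 with *Izumo1r*. The part of base composition in the correlations was otherwise not tested.

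For each gene the 3 most alike of 8436 genes were named by Pearson r over the 33 oocytes. *Zp1* was nearest to *Slc6a7* (0.92), *Nucb1* (0.91) and *Mybl2* (0.89), and *Zp2* to *Nlrp14* (0.88), *Thnsl1* (0.83) and *Riok2* (0.80). *Zp3* was nearest to *Knstrn* (0.86), *Gm14091* (0.86) and *Akr1b3* (0.84), and *Astl* to *Atg16l1* (0.82), *Ssc4d* (0.80) and *Erfe* (0.79). *Izumo1r* was nearest to *Cdca5* (0.90), *Hpcal1* (0.90) and *Eif2b2* (0.89). *Cd9* was nearest to its overlapping entry *Gm26728* (0.89), *Lsm1* (0.89) and *Akr1c21* (0.87), and *Cd81* to *Tceal9* (0.70), *Hipk3* (0.64) and *Snrpb* (0.64). Of these 21 genes, 8 were still among the 3 nearest after group means were subtracted and 9 after correction for GC content and length.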

How the data were processed

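The authors sequenced the RNA of 33 single GV oocytes, trimmed the reads with Trim Galore and aligned them with HISAT2 (versions not given in the sources used here), and they deposited whole-number read counts per gene without normalization. Shallow libraries had been left out. The methods name GRCm39, whereas the deposited column names and coordinates are GRCm38. Of 35373 entries, 52 repeated a gene and the first of each was kept. The authors' tables of called genes hold their own fold changes and p-values and were not used, and neither was a table of reads per library.

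Counts were divided by size factors (median of ratios over 33 oocytes) and averaged over oocytes, and log2 fold changes were taken between means with a pseudocount of 1, which understates changes of low genes. A gene was tested where its normalized counts averaged 10 or more over all oocytes of both groups, and it was called at a size of at least 0.5. Genotype came from the labels. Stage was read by eye from the staging heatmap and principal component plots of the study. Exon length and GC content came from GENCODE vM39, matched by gene identifier for 34755 of 35321 genes. Poisson intervals cover counting error only, since amplified reads are not independent molecules. The genes named are the 7 genes, those of fixed lists, the 3 most alike per gene and *Nlrp5*. The members and lists were chosen with earlier results of these data known. Of the marker lists, theca and interstitial markers summed to 4.73 to 675 CPM and stroma, vessel and blood markers to 46.2 to 221 CPM, both highest in oocyte 15.

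Alternatives were total count scaling, TMM factors, size factors within each comparison, medians, pooled sums, a pseudocount of 5, no filter, no regard to stage with the unstaged oocyte 15 included, comparison within a first index, coding length, leaving out oocytes 55 and 61 or 7, 13 and 14, and leaving out each oocyte. Correction for GC content and length, no regard to stage without oocyte 15, and medians without *Astl* and *Cd81* were chosen after seeing the data. The fold change and slope were tested on simulated data. Python 3.11.15, numpy 2.4.6, pandas 2.3.3 and scipy 1.17.1 were used.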

Additional observations from a re-analysis of the deposited data

Results flagged for a closer look

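In 35 groups of 4 to 9 oocytes, 1 per gene, genotype and stage, 4 had an oocyte whose gap to its nearest neighbour exceeded the 95% critical value of Dixon's test, which chance gives in about 1 of 20 groups. *Zp1* in oocyte 87 (Nlrp5+/+, NSN) had 11830 normalized counts beside 7114 to 7834 in the other 3, and that oocyte was also the highest of its group for *Zp3* at 27431 and *Izumo1r* at 2153 and the lowest for *Cd9* at 2082. *Zp2* in oocyte 14 (Nlrp5-/-, NSN) had 48884 beside 43244 to 43890. *Cd9* in oocyte 69 (Nlrp5+/+, SN) had 874 beside 1577 to 1893. *Cd81* in oocyte 63 (Nlrp5+/-, NSN) had 63.9 beside 6.77 to 29.7. No cause was tested.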

How the results depend on the processing

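No paired analysis was possible because the replicate numbers follow accession order only. Stages were instead compared between oocytes that shared a first index. A value counted as moved where it shifted by more than the spread between oocytes, which leaving out 1 oocyte seldom does. The counts that follow therefore do not show that the values are stable. The Nlrp5+/- stage median counted as unmoved although it went from -0.27 to -0.79 between oocytes that shared a first index. Alternatives were computed for the median over the 7 genes in each comparison, the level ratio, the zona share and the most alike genes. Of these 230 values, 228 moved by less than the spread between oocytes. The exceptions were 8 of 21 most alike genes shared after subtracting group means and 9 after correction for GC content and length, and the cause was not tested. Of 1274 alternative values for single genes, 28 moved by more and 2 reversed a call, both for *Cd81* in Nlrp5-/- over Nlrp5+/- at SN, which was 0.88 and became -0.85 without oocytes 7, 13 and 14 and without oocyte 7 alone, since that leaves oocyte 31 only. Over left-out oocytes it ran from -0.85 to 1.65. The *Zp1* call at NSN for Nlrp5-/- over Nlrp5+/+ ran from 0.62 to 0.91 over left-out oocytes, and for Nlrp5+/- over Nlrp5+/+ from 0.39 to 0.75. With no filter, the share of genes called in Nlrp5+/- over Nlrp5+/+ was 33.1% in place of 19.4% at NSN and 26.0% in place of 10.6% at SN. The 2 Nlrp5-/- oocytes at SN and the 67 *Cd81* reads at SN in Nlrp5+/+ limit the values that rest on them.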
